A study of Mus musculus with 16 samples.

Results

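The 10 genes of lipoprotein structure and assembly followed here in mouse liver were Apob, Mttp, Apoa1, Apoa2, Apom, Apof, Apoe, Apoc1, Apoc4 and Apoa4. They were taken by name from a table of RSEM expected counts, and all 10 were found among its 51912 genes. All 10 were also among the 14920 genes that passed the filter on low counts. The study sequenced stranded, poly-A-enriched mRNA from the livers of male mice placed at 10 weeks of age on a control diet or on one with little isoleucine, an essential branched-chain amino acid. After 3 weeks, at 13 weeks of age and about 22 °C, livers were taken after a 16-hour overnight fast or after refeeding. A 16-hour fast is given for all 4 groups, the refed ones included. This gave 4 groups of 4 libraries: control diet fasted, low isoleucine fasted, control diet refed and low isoleucine refed. No source used here gives the strain, the length of the refeeding or the isoleucine content of the diet. Each group carries a single number of its own in the sample titles (1, 2, 7 and 9), so anything the number marks cannot be told apart from the group. The labels do not state that each library came from a separate animal, so p-values measure only the spread between these samples. Where livers are counted below, a liver stands for a library.

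The liver exports fat as very low density lipoprotein. Apolipoprotein B, the product of Apob, is the single large protein that stays with each particle, and microsomal triglyceride transfer protein, encoded by Mttp, loads lipid onto it in the endoplasmic reticulum. Apolipoproteins A-I and A-II are the main proteins of high density lipoprotein, while apolipoprotein E and the C apolipoproteins move between particles and govern their uptake and lipolysis.

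Positions below are those of GENCODE M21 on GRCm38; no source used here names the build used for counting. Apob lies at chr12:7977648-8016835 on the plus strand, with 29 exons in its longest coding transcript. Mttp lies at chr3:138089854-138144968 on the minus strand, with 18 exons. Apoe (chr7:19696109-19699188), Apoc1 (chr7:19689481-19692660) and Apoc4 (chr7:19678083-19681479) form one cluster on the minus strand, with 3448 bases between Apoc1 and Apoe and 8001 between Apoc4 and Apoc1. Apoa1 (chr9:46228580-46230466) and Apoa4 (chr9:46240696-46243459) both lie on the plus strand of chromosome 9, 10229 bases apart. Genes that are not members were not searched for between them. Apoa2 (chr1:171225054-171226379, plus), Apom (chr17:35128997-35132050, minus) and Apof (chr10:128268671-128270153, plus) each lie on a chromosome with no other member.

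The promoter windows of 4 members are shown because Apob and Mttp were lower after refeeding and because Apoe and Apoc4 rose and fell together across libraries. Each is the 250 bases before a RefSeq transcription start on GRCm38.p6, read 5′ to 3′ on the gene's strand, with capitals marking matches to the motifs searched.
Apob, chr12:7977427-7977676, plus strand: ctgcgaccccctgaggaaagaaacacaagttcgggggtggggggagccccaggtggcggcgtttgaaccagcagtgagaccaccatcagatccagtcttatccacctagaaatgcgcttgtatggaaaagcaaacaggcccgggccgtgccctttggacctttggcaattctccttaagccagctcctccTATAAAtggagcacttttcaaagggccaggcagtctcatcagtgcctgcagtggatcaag
Mttp, chr3:138143419-138143668, minus strand: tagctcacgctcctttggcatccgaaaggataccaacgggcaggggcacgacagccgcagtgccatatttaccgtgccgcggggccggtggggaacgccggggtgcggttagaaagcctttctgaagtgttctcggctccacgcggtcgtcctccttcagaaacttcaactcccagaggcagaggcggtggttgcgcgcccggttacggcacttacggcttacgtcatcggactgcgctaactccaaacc
Apoe, chr7:19699189-19699438, minus strand: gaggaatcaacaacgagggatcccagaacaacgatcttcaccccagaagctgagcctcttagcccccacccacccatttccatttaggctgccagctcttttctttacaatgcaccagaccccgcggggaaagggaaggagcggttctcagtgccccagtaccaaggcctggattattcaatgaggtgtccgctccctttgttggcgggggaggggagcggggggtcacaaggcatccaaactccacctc
Apoc4, chr7:19681461-19681710, minus strand: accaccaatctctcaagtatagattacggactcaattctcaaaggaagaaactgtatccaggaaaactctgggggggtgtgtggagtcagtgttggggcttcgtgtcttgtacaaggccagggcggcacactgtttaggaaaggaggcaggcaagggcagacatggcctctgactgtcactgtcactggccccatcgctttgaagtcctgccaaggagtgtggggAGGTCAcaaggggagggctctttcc
The motifs, searched on both strands, were the TATA box TATAAA, the forkhead core TGTTTAC, the nuclear receptor half-site AGGTCA, the HNF4 core CAAAGTCCA, the HNF1 palindrome and the sterol element TCACNCCAC. The Apob window holds TATAAA at -60 to -55 from its start, and the Apoc4 window holds AGGTCA at -25 to -20. The Mttp window and this Apoe window hold none of the 6. Apoe has 3 windows in the RefSeq table, and another of them, chr7:19698622-19698871, holds TATAAA on both strands, at -96 to -91 on the gene's strand and at -100 to -95 on the other. Of 32851 RefSeq windows of the same length, 12.4% hold TATAAA, 14% AGGTCA, 3.17% TGTTTAC, 0.384% CAAAGTCCA, 1.05% TCACNCCAC and 0.00913% the HNF1 palindrome. A match is a run of letters and not a measured binding site. Of the members 8 had windows in the RefSeq table, in 11 windows in all; Apoc1 and Apof had none. The Mttp gene has starts at more than 1 place in the annotation, and which of them these livers used was not measured.

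Library totals ran from 24368656 to 34002955 expected counts, and the 10 members together took 1.93% to 3.54% of them. Levels below are CPM, counts scaled to a common library total by TMM, which sets libraries against each other by the bulk of their genes. The liver label matched its markers, with Alb, the gene of serum albumin, at 39257 to 92121 CPM. Several members are also made by intestinal epithelium, where Cdx2 and Sis are defining genes, and both were at 0 in all 16 libraries. Cdh17 was at 0 in 12 of 16. Fabp2, which is also on that list, stood at 119 to 191 CPM. Control refed library 4 stood apart. Its scaling factor was 1.21. It was the highest of the 16 for 9 of 13 Kupffer cell, 6 of 9 stellate and 5 of 6 tested lymphocyte markers. For endothelial and hepatocyte markers it was highest for 3 of 7 and 1 of 10. For cholangiocyte and tested intestinal markers it was highest for 0 of 5 and 0 of 2. The part of this library in the results was tested by leaving it out. In bulk tissue, fewer cells of a type and less RNA per cell cannot be told apart.

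Levels of different genes were compared per kilobase of merged exons. Apoa2 stood first, at 8889 ± 1502 CPM per kilobase (SD, n = 16), and Apoa1 second, at 4414 ± 957. Apoc1 (2851 ± 499.8) and Apoe (2817 ± 762) did not differ beyond their spread, with Apoc1 above Apoe in 10 of 16 libraries. Apoa4 followed at 773 ± 357, then Apof at 446 ± 47.3 and Apob at 353 ± 60.5. Apoc4 (176 ± 49.3) and Apom (172 ± 23.4) were level, Apoc4 being higher in 9 of 16 libraries. Mttp was lowest at 69.0 ± 13.9. The order depended on the length used: against its longest coding transcript of 538 bases, instead of 2537 merged bases, Apoc4 came to 828 CPM per kilobase and rose to rank 5.

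**Figure D1:**
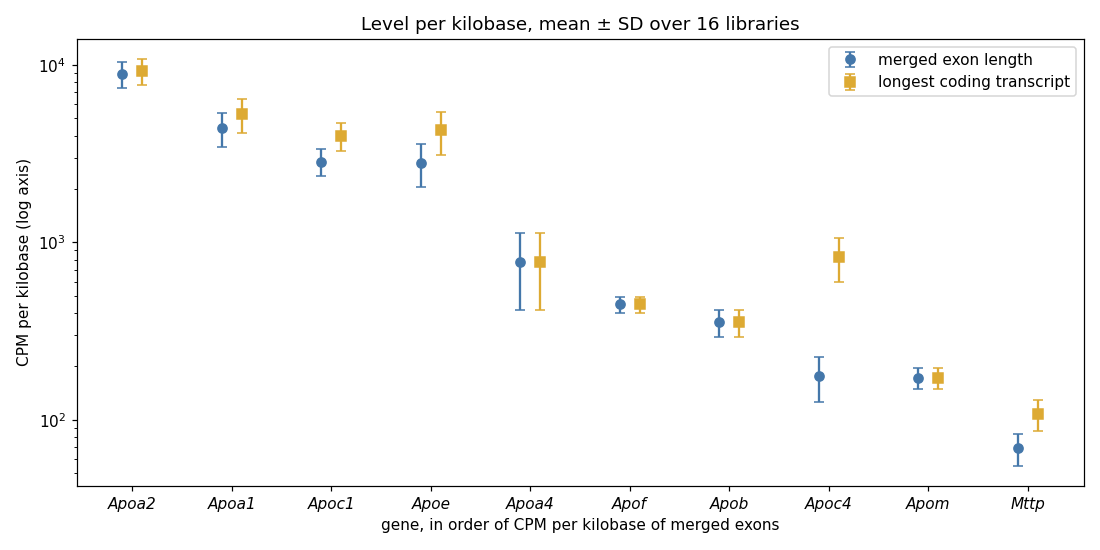
Level of each member in CPM per kilobase on a log axis, as mean and SD over the 16 libraries, by merged exon length (circles) and by the longest coding transcript (squares). The members run from Apoa2 at 8889 to Mttp at 69.0 CPM per kilobase of merged exons, and Apoc4 moves most with the length used.

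Apob and Mttp were lower in refed than in fasted livers of mice on the low isoleucine diet. Apob, whose protein is the scaffold of the particle, fell by 30.5% there, and Mttp, whose product lipidates it, fell by 32.3%. In the same fit no other member passed the test in any comparison of diet or feeding.

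Apob stood at 5243, 5162, 5517 and 5100 CPM in the 4 control fasted livers, against 6582, 5899, 5399 and 5466 in the low isoleucine fasted livers. After refeeding it stood at 4175, 4031, 5347 and 4623 CPM on the control diet and at 4177, 3810, 4884 and 3350 on the low isoleucine diet. Every refed liver on the low isoleucine diet was below every fasted liver on that diet, while on the control diet 1 refed liver, library 3, lay within the fasted range. The log2 fold change of refed over fasted on the low isoleucine diet was -0.53 (SE 0.131, 95% interval -0.80 to -0.25), with an adjusted p of 0.00858 by edgeR's quasi-likelihood test with Benjamini-Hochberg adjustment. On the control diet it was -0.21 (SE 0.130, adjusted p = 0.313 by the same test), and -0.09 under scaling by library size alone. Across all 12 other settings of the processing it ran from -0.22 to -0.05 there.

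Mttp stood at 450, 411, 459 and 444 CPM in control fasted livers, against 483, 583, 555 and 542 in low isoleucine fasted livers. Refed livers held 364, 354, 449 and 298 CPM on the control diet, against 408, 388, 390 and 277 on the low isoleucine diet. The groups did not overlap on the low isoleucine diet, and the lowest refed value on each diet belonged to library 4 of its group. Refeeding changed Mttp by -0.56 on the log2 scale on the low isoleucine diet (SE 0.136, 95% interval -0.85 to -0.28, adjusted p = 0.00721 by edgeR's quasi-likelihood test with Benjamini-Hochberg adjustment). The value on the control diet was -0.27 (SE 0.136, adjusted p = 0.203 by the same test), -0.18 (adjusted p = 0.385) without control refed library 4 and -0.17 under scaling by library size alone. Mttp shares 457 exonic bases with Trmt10a on the opposite strand, and no source used here states whether counting used strand.

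Both calls stood within a large response of the liver as a whole. On the low isoleucine diet 21.4% of all genes tested were called, and 11.8% of all genes tested were called lower, and 2 of 10 members is a share near that background. On the control diet 17.1% were called and 0 of 10 members, with 0 members also at an unadjusted p under 0.05, where 29.4% of all genes were, and 0 by DESeq2 or limma-voom. Scaling by library size alone raised the median log2 change of all genes to 0.14 on the control and 0.13 on the low isoleucine diet. It moved the share of called genes that were higher from 52.1% to 71.7% and from 44.9% to 64.5%. On the low isoleucine diet 3 members, Apob, Mttp and Apoc1, were at an unadjusted p under 0.05, against 33.4% of all genes. Apob and Mttp stayed lower and called on the low isoleucine diet under that scaling. Of the 10 hepatocyte markers 2 fell on refeeding with the low isoleucine diet, Fga by 0.40 and Hnf4a by 0.71 on the log2 scale. Mean levels of Tat, Ttr, Asgr1, Trf and Serpinc1 were higher after refeeding on that diet, and those of Alb, Cps1 and Fgb lower. The list summed to 100938 to 121722 CPM in the fasted and 82966 to 110333 in the refed livers of that diet. Lgals4, of the intestinal list, ran from 9.62 to 55.8 CPM over the 16 libraries and also fell there, with a log2 fold change of -2.16. The Kupffer list summed to 247 to 355 CPM in the fasted and 236 to 422 in the refed livers of that diet, with 0 of 13 genes called by edgeR. Mean levels of Fga, Hnf4a and Lgals4 were also lower after refeeding on the control diet. Fga averaged 2756 CPM in fasted and 2222 in refed livers there, Hnf4a 749 and 575, and Lgals4 43.7 and 13.0. Alb, Ttr and Trf averaged higher after refeeding on the control diet, and the rest of the hepatocyte list lower. The part of these markers in the result was not tested.

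The response to refeeding was not shown to differ between the diets. The low isoleucine response minus the control response was -0.32 for Apob (SE 0.184, 95% interval -0.70 to 0.07, adjusted p = 0.873) and -0.30 for Mttp (SE 0.192, adjusted p = 0.910), both by edgeR's quasi-likelihood test with Benjamini-Hochberg adjustment. The value for Mttp was -0.18 without control refed library 3 or without low isoleucine refed library 4. Without control refed library 4 it was -0.39 (SE 0.186, adjusted p = 0.647 by the same test). With the diets averaged, a contrast chosen after the data were seen, Apob changed by -0.37 (SE 0.0922, adjusted p = 0.00524) and Mttp by -0.42 (SE 0.0962, adjusted p = 0.00298), by the same test. The other 8 members were not called in that average, in which 32.9% of all genes were. The average was fitted under the main settings only, without the length and GC trend taken out.

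The call for Apob kept its direction but not its size when gene length and GC content were taken into account. Libraries differed in how expression followed transcript length and GC content. The length trend averaged 0.04 log2 units per doubling of length in the low isoleucine fasted livers (0.01 to 0.08) and -0.06 in the low isoleucine refed livers (-0.14 to -0.01), so it was positive in all 4 of the first group and negative in all 4 of the second. The GC trends of these groups overlapped, at -0.38 to 0.21 and -0.20 to 0.25 per 10 percentage points of GC. With each library's trends on length and GC removed together, an alternative chosen after the data were seen, Apob changed by -0.26 on the low isoleucine diet (SE 0.0916, adjusted p = 0.0477 by edgeR's quasi-likelihood test). Mttp changed by -0.48 (SE 0.132, adjusted p = 0.0123) in the same fit, and the separate parts of length and GC were not tested. Across all 12 other settings the fold changes ran from -0.54 to -0.26 for Apob and from -0.58 to -0.46 for Mttp. Leaving out each of the 16 libraries in turn gave -0.63 to -0.44 and -0.62 to -0.45, and both calls were made in every one of these fits. The control diet libraries enter this comparison only through the filter, the scaling and the shared spread, so leaving them out tests it little.

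**Figure D2:**
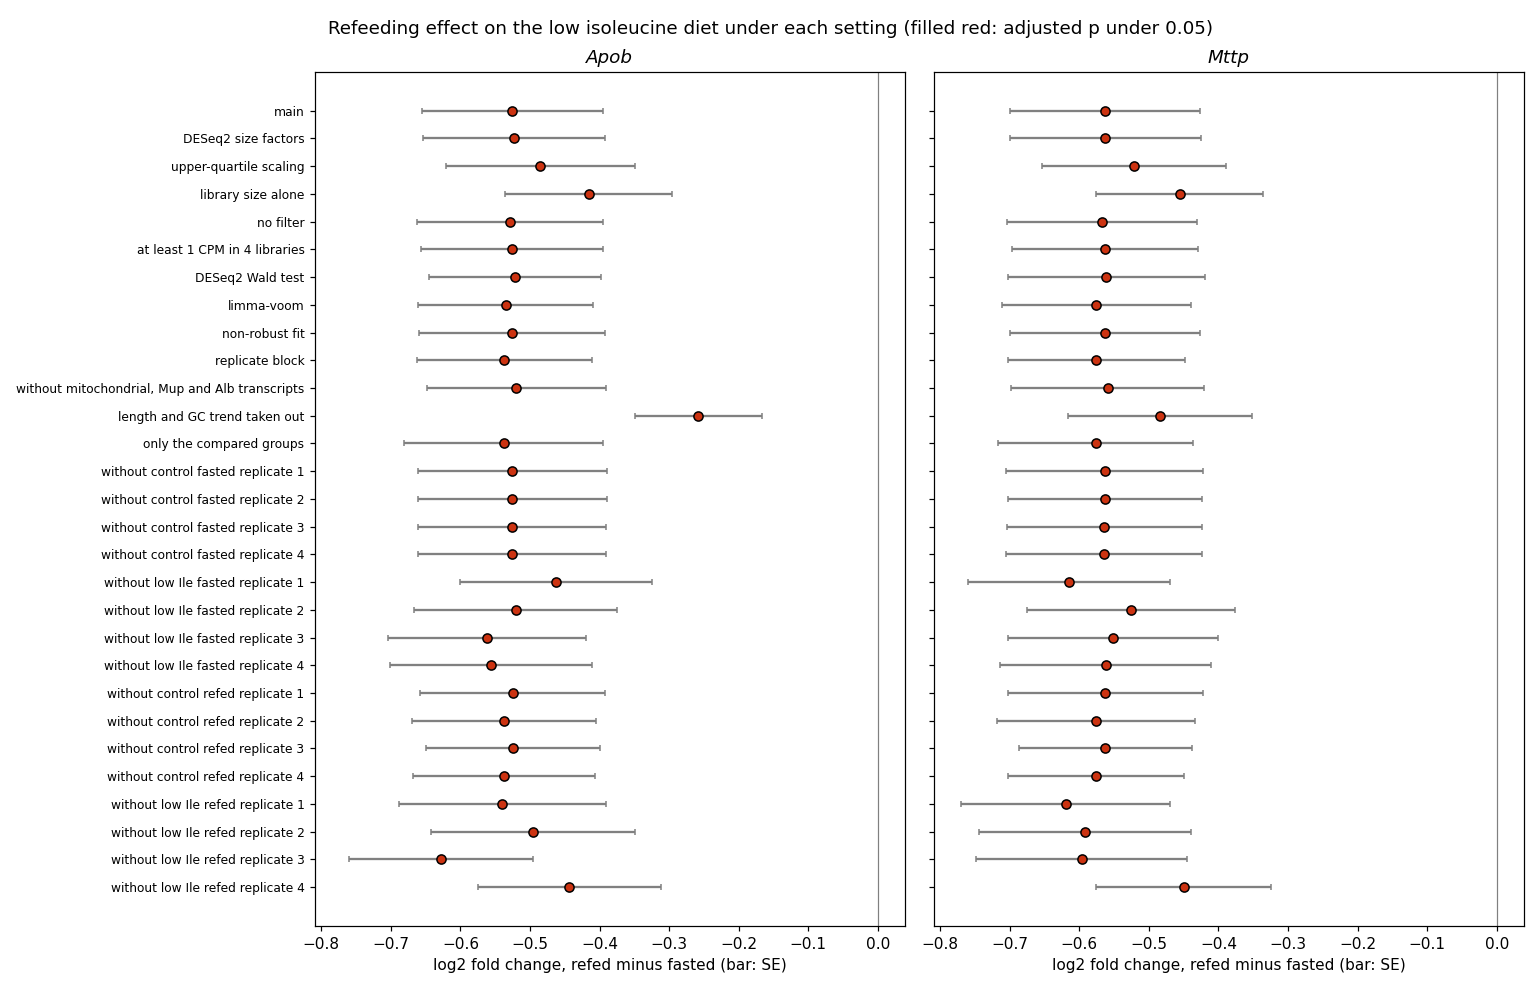
Log2 fold change of Apob and Mttp, refed over fasted on the low isoleucine diet, under the reported fit (main) and each alternative. All values lie below 0, and the smallest for Apob, -0.26, is the fit with the length and GC trend taken out.

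**Figure D3:**
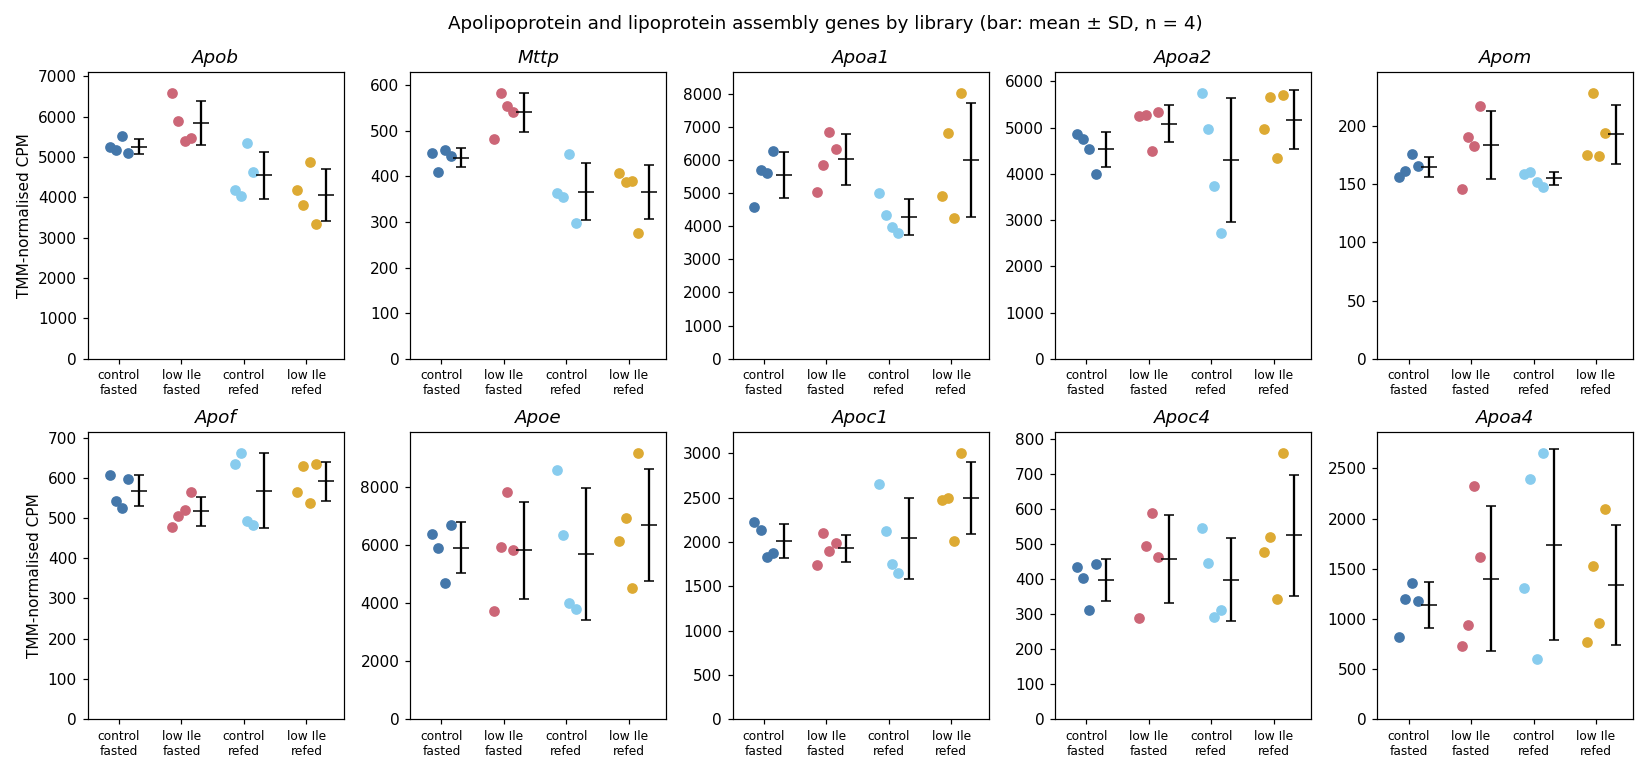
CPM of each member in each of the 16 libraries, 4 per group, on linear axes that start at 0. Apob and Mttp are lower in the low isoleucine refed than in the low isoleucine fasted livers without overlap, while Apoa4 spreads from 601 to 2650 CPM.

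The assembly factor was also set against its substrate within each library. Mttp counts per 100 Apob counts averaged 8.39 ± 0.333 (SD, n = 4) in control fasted, 9.35 ± 1.36 in low isoleucine fasted, 8.09 ± 1.11 in control refed livers and 9.05 ± 1.09 in low isoleucine refed livers. The 4 groups overlapped.

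The high density lipoprotein genes Apoa1 and Apom had their largest diet differences in refed livers, and neither passed the test. Apoa1, the main structural protein of that particle, stood at 4994, 4348, 3975 and 3784 CPM in control refed livers, against 4906, 6802, 4261 and 8013 in low isoleucine refed livers. The ranges overlapped: 2 of the low isoleucine livers lay within the control range and the other 2 were higher than any control. The log2 fold change of low isoleucine over control was 0.49 (SE 0.179, 95% interval 0.11 to 0.87, adjusted p = 0.389 by edgeR's quasi-likelihood test with Benjamini-Hochberg adjustment). It was 0.32 without low isoleucine refed library 4 (adjusted p = 0.830) and 0.31 with the length and GC trend taken out (adjusted p = 0.299). In fasted livers Apoa1 averaged 5540 ± 697 CPM on the control and 6011 ± 765 on the low isoleucine diet (SD, n = 4), a log2 fold change of 0.12. Refeeding on the control diet gave -0.37 (SE 0.179, adjusted p = 0.176), which became -0.46 with an adjusted p of 0.00877 once the length and GC trend was taken out.

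Apom encodes the apolipoprotein that carries sphingosine-1-phosphate on high density lipoprotein. It stood at 159, 160, 152 and 148 CPM in control refed livers, against 175, 228, 174 and 194 in low isoleucine refed livers, with no overlap between the diets. The log2 fold change was 0.32 (SE 0.118, 95% interval 0.07 to 0.57, adjusted p = 0.401 by edgeR's quasi-likelihood test), and 0.20 with the length and GC trend taken out. In fasted livers the diets overlapped, at 156 to 176 CPM on the control and 146 to 217 on the low isoleucine diet. Apoa2, the second protein of the particle, averaged 4536 ± 377, 5088 ± 398, 4293 ± 1342 and 5177 ± 647 CPM in the control fasted, low isoleucine fasted, control refed and low isoleucine refed groups, and the groups overlapped. Apof, known from human as an inhibitor of lipid transfer between lipoproteins, had the narrowest range of the members, 1.38-fold over the 16 libraries from 479 to 661 CPM.

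Of the members that exchange between particles, Apoe ran from 3709 to 9159 CPM. It encodes the ligand by which remnant particles are taken up by the liver, and its group means were 5911 ± 870, 5815 ± 1676, 5680 ± 2268 and 6683 ± 1933 CPM (SD, n = 4) in the same order of groups. The 4 groups overlapped. Apoc4, a minor component of very low density lipoprotein, averaged 399 ± 59.9, 458 ± 125, 399 ± 119 and 525 ± 173 CPM. Apoc4 shares 119 exonic bases with Gm44805 on the same strand, so its counts could include that gene's reads. Apoc1, whose protein slows the uptake and lipolysis of particles, stood at 1738, 2099, 1898 and 1989 CPM in low isoleucine fasted livers, against 2476, 2495, 2006 and 3001 after refeeding on that diet. Of the refed livers 3 were above all fasted ones, and library 3 lay among them. The log2 fold change was 0.37 (SE 0.154, adjusted p = 0.0993 by edgeR's quasi-likelihood test). It was called when library 3 of the low isoleucine refed group was left out (0.46, adjusted p = 0.0478) and under scaling by library size alone (0.49, adjusted p = 0.0407). It came to 0.19 (adjusted p = 0.138) with the length and GC trend taken out and to 0.27 (adjusted p = 0.284) without library 4 of that group.

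Apoa4, which in mouse is made in intestine and liver and is carried on chylomicrons and high density lipoprotein, was the most variable member. It stood at 818, 1194, 1354 and 1178 CPM in control fasted livers, at 725, 940, 2321 and 1614 in low isoleucine fasted, at 1312, 2398, 601 and 2650 in control refed livers and at 770, 1531, 960 and 2094 in low isoleucine refed livers. The lowest and the highest of the 16 values, 4.41-fold apart, both came from control refed livers. Refeeding on the control diet gave a log2 fold change of 0.62 with an SE of 0.445, or 0.33 without control refed library 4, and the difference of its diet effects between feeding states was -0.68 with an SE of 0.628. Changes of this size could not be told from the spread. Apoa4 overlaps Gm10680 by 632 and Gm47528 by 634 exonic bases on the opposite strand.

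For diet, the question the study was built on, 0 of 10 members were called in fasted livers, where 0.771% of genes tested were called, and 1 of 10 was at an unadjusted p under 0.05, against 10.8% of all genes. That gene was Mttp, at 0.29 (SE 0.136, adjusted p = 0.448 by edgeR's quasi-likelihood test), with every low isoleucine fasted liver above every control fasted liver. In refed livers 0 of 10 members were called against 0.174% of all genes, and 2 of 10, Apoa1 and Apom, were at an unadjusted p under 0.05, against 9.76% of all genes. Averaged over both feeding states 0 of 10 were called against 1.51% of all genes. The 2 members at an unadjusted p under 0.05, against 14.3% of all genes, were Apom, at 0.24 (SE 0.0836, adjusted p = 0.187), and Apoa1, at 0.30 (SE 0.127, adjusted p = 0.272). For the difference of the diet effects 0 of 10 members and 0 of all genes (0%) were called by edgeR, with 0 members and 928 of all genes (6.22%) at an unadjusted p under 0.05. Without control refed library 4, edgeR also called 0 of 10 members in each of these comparisons. DESeq2 and limma-voom also called 0 of 10 members in each of these 4 comparisons, while DESeq2 called 35 genes and limma-voom 0 for the difference. These comparisons share groups with one another and with the refeeding comparisons.

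The median log2 fold change of the 10 members was 0.15 in fasted and 0.25 in refed livers for diet, against 0.01 and -0.01 over all genes tested. For refeeding it was -0.07 on the control and 0.05 on the low isoleucine diet, against 0.01 and 0.02. The median size of change, whatever its sign, was 0.155 log2 units for members against 0.161 for all genes for diet in fasted livers, and 0.279 against 0.165 in refed livers. It was 0.0844 log2 units for members against 0.260 for all genes on refeeding with the control diet, and 0.195 against 0.293 with the low isoleucine diet. In the authors' deposited table of 14211 genes, the adjusted p-values of the members ran from 0.520 to 0.989 in fasted and from 0.407 to 0.998 in refed livers. The authors' deposited table gave Apoa1 in refed livers a log2 fold change of 0.49 and Mttp in fasted livers 0.29.

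**Figure D4:**
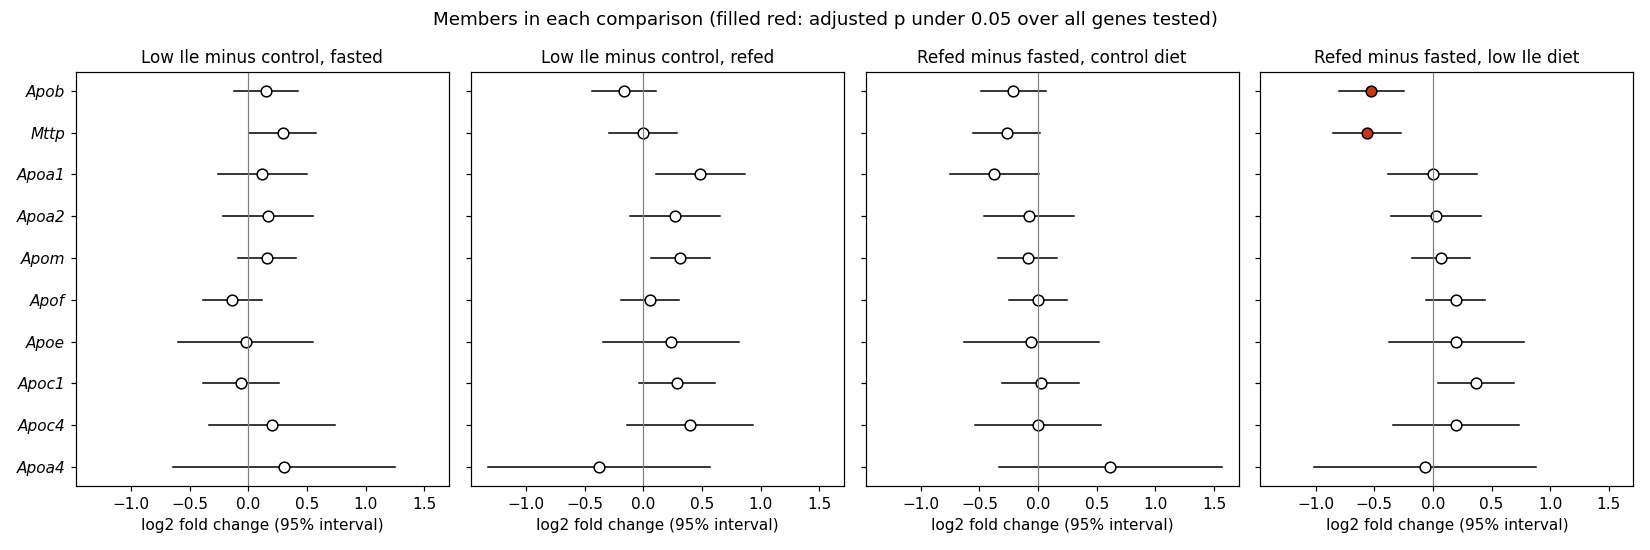
Log2 fold change of each member with its 95% interval in 4 comparisons, from edgeR's quasi-likelihood fit over all genes. Only Apob and Mttp on refeeding with the low isoleucine diet pass an adjusted p of 0.05 (filled), at -0.53 and -0.56, and the intervals of Apoa4 are the widest.

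Livers within a group differed in a pattern that several members shared. Of the 45 pairs of members, 16 had a Benjamini-Hochberg adjusted permutation p under 0.05 for the deviations of log2 CPM from the group mean. Pairs of other genes were not tested, so this share has no background to be read against. Apoe and Apoc4, 14629 bases apart, moved together (Pearson r = 0.979, permutation p = 6e-05, adjusted 0.0027; Spearman rho = 0.974, permutation p = 4e-05, adjusted 0.0018; r = 0.973 without the 2 farthest libraries, n = 16). Apob moved opposite to Apoe (r = -0.855, permutation p = 0.00113, adjusted 0.00726; rho = -0.900, permutation p = 0.00045, adjusted 0.00585; r = -0.832 without the 2 farthest libraries). Apob and Mttp gave r = 0.485 (permutation p = 0.194, adjusted 0.257) and rho = 0.482 (permutation p = 0.134, adjusted 0.183), and r = 0.259 without the 2 farthest libraries.

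For several members these deviations went with the GC trend of the library. A trend of expression on GC content, fitted per library on 12146 genes that are not members, was compared with each member's deviation, together with a trend on length, in 20 relations. Other genes were not tested in this way, so the shares of members have no background. The trend is itself a slope over those other genes. By Pearson's r 6 of 10 members, Apoa1, Apob, Apoc1, Apoc4, Apoe and Apof, had an adjusted permutation p under 0.05 with the GC trend. With the length trend 1 of 10 did, Apoa2 (r = -0.847, permutation p = 0.00065, adjusted 0.00325; rho = -0.791, permutation p = 0.00223, adjusted 0.00892; r = -0.787 without the 2 farthest libraries). Apoe, whose longest coding transcript is 59.5% GC, followed the GC trend with r = 0.963 (permutation p = 3e-05, adjusted 0.0003) and rho = 0.965 (permutation p = 3e-05, adjusted 0.0004), and r = 0.953 without the 2 farthest libraries. Apob, at 43.5% GC and 13934 bases, followed it inversely, with r = -0.871 (permutation p = 8e-05, adjusted 0.000533), rho = -0.909 (permutation p = 0.00016, adjusted 0.00107) and r = -0.816 without the 2 farthest. Mttp, at 45.9% GC, had r = -0.119 (permutation p = 0.702, adjusted 0.773) and rho = -0.221 (permutation p = 0.481, adjusted 0.506), and -0.249 without the 2 farthest. Mean GC trends were -0.04, -0.02, -0.02 and 0.09 log2 units per 10 percentage points of GC in the control fasted, low isoleucine fasted, control refed and low isoleucine refed livers. Mean length trends were 0.04, 0.04, -0.02 and -0.06 log2 units per doubling of length in the same order. With both trends taken out, the within-group SD of log2 CPM fell from 0.432 to 0.137 for Apoe and from 0.404 to 0.128 for Apoc4, and went from 0.190 to 0.198 for Mttp. Then 0 of the 45 pairs had an adjusted p under 0.05, and Apoe with Apoc4 gave r = 0.754 (permutation p = 0.00129, adjusted 0.0580) and rho = 0.768 (permutation p = 0.0036, adjusted 0.162), with r = 0.697 without the 2 farthest libraries. The source of the trend was not tested.

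**Figure D5:**
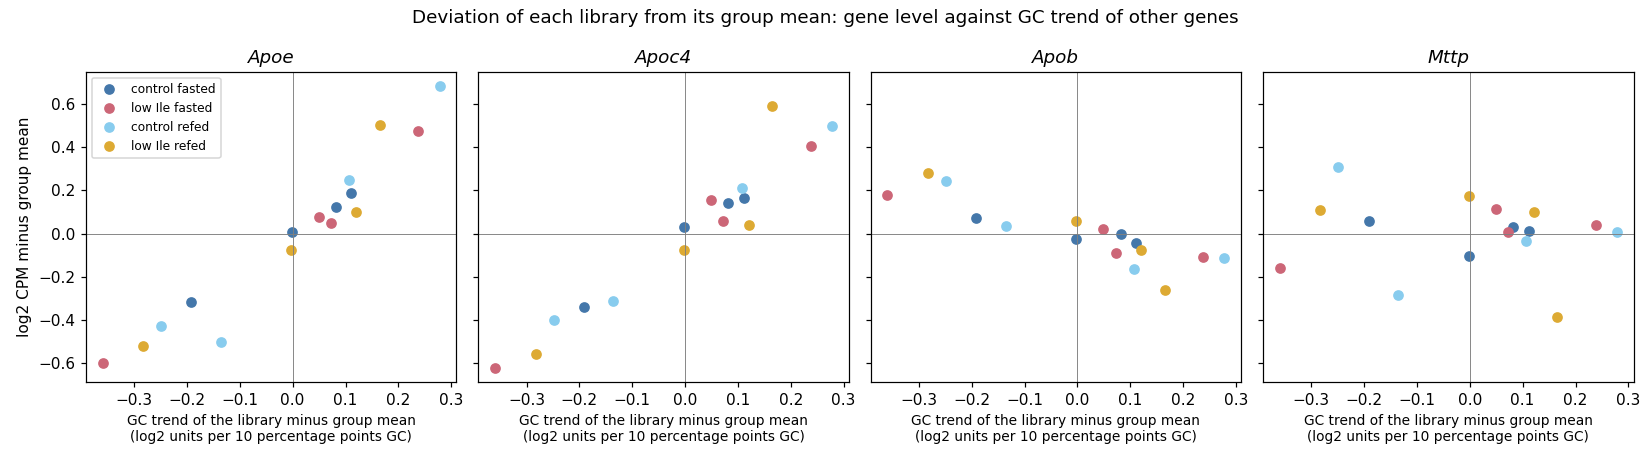
Deviation of log2 CPM from the group mean for members against the GC trend of each library, in log2 units per 10 percentage points of GC, 1 point per library. Apoe rises with the trend (r = 0.963), Apob falls with it (r = -0.871) and r was -0.119 for Mttp.

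The genes most like each member over the 16 libraries were found by the root mean square difference of centred log2 CPM among genes that averaged at least 1 CPM and are not members. For Apob they were Copb1 (0.0800 log2 units), Atp2c1 (0.0827) and Psme4 (0.0836). For Mttp they were Chp1 (0.126), Hsd17b4 (0.132) and Reep3 (0.135). For Apoe they were Proc (0.0924), Grcc10 (0.103) and Ninj1 (0.105), and for Apoc4 Etfb (0.0956), Adprhl2 (0.0983) and Tspo (0.102). Apoe and Apoc4 themselves differed by 0.121. Set among these other genes, Apoc4 would take rank 14 for Apoe, and Apoe rank 11 for Apoc4. The nearest genes were Nop53, Ubxn1 and Rbp4 for Apoa1, Lipc, Eci1 and Cradd for Apoa2, Tubb6, Col16a1 and Itpr3 for Apoa4, and Sin3b, Rilp and Ttc36 for Apoc1. They were Rps3, Eif3i and Oxa1l for Apom and Exoc7, Serpinf1 and Clcn7 for Apof.

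Other genes of particle assembly and export responded to refeeding in both directions. Of 26 listed, 4 rose and 3 fell on the control diet, and 3 rose and 6 fell on the low isoleucine diet, by edgeR's quasi-likelihood test, where 17.1% and 21.4% of all genes tested were called. Sec23b, a coat protein of the vesicles that leave the endoplasmic reticulum, rose by 1.54 and 1.22 on the log2 scale on the control and low isoleucine diets, while its paralogue Sec23a changed by -0.64 and -0.96. Lpcat3, which makes the polyunsaturated phospholipids of the particle surface, changed by -1.20 and -1.30. Dgat2, an enzyme of triglyceride synthesis, stood at 241 ± 35.6 CPM in low isoleucine fasted and 382 ± 55.1 in low isoleucine refed livers (SD, n = 4), and rose by 0.66. The median of the list was 0.03 on the control and -0.06 on the low isoleucine diet. For diet 0 of the 26 were called by edgeR in fasted, refed or averaged livers, with 3, 4 and 4 at an unadjusted p under 0.05. Over all genes tested the shares called were 0.771%, 0.174% and 1.51%, and those at an unadjusted p under 0.05 were 10.8%, 9.76% and 14.3%. The 4 genes of Apob mRNA editing gave 0 calls in any comparison. At an unadjusted p under 0.05 by edgeR were 1 and 2 for refeeding on the control and low isoleucine diets. The shares of all genes were 29.4% and 33.4%. For diet in fasted, refed and averaged livers 0, 1 and 1 were, against 10.8%, 9.76% and 14.3% of all genes.

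Of 20 listed regulators of these genes, 1 rose and 8 fell on refeeding with the control diet, and 3 rose and 8 fell with the low isoleucine diet, against 17.1% and 21.4% of all genes called in either direction. Srebf1, the regulator of lipid synthesis that insulin induces, rose by 1.80 and 2.21 on the log2 scale. The coactivators Ppargc1b and Ppargc1a changed by -1.85 and -1.76 on the control diet and by -1.70 and -1.81 on the low isoleucine diet. Nr1d1, a repressor of the circadian clock, changed by -1.69 on the control diet. Ppara, the regulator of fatty acid oxidation in the fasted liver, changed by -1.77 on the low isoleucine diet. It was also called lower on the control diet. The medians were -0.32 and -0.41. For diet 0 of 20 were called by edgeR in fasted or refed livers, with 0 and 2 at an unadjusted p under 0.05, against 10.8% and 9.76% of all genes.

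Of 11 genes that remodel or clear high density lipoprotein, Abcg8, Abcg5 and Scarb1 fell on refeeding on both diets and none rose, where 17.1% and 21.4% of all genes were called. Abcg5 and Abcg8 form the sterol exporter of the bile canaliculus, and Scarb1 is the receptor that takes cholesterol from high density lipoprotein. Abcg8 changed by -1.33 and -1.21, Abcg5 by -0.91 and -0.79 and Scarb1 by -0.66 and -0.44. For diet 0 of the 11 were called by edgeR in fasted, refed or averaged livers, with 1, 3 and 5 at an unadjusted p under 0.05, against 10.8%, 9.76% and 14.3% of all genes. Among the listed genes of lipoprotein uptake, Vldlr, a receptor for triglyceride-rich particles, rose with diet in fasted and in refed livers, and it rose by 0.99 on refeeding with the low isoleucine diet. It stood at 1.82 ± 1.14 CPM in control fasted livers, against 8.04 ± 0.893 in low isoleucine fasted livers, a log2 fold change of 2.15 (SE 0.341, adjusted p = 0.0143 by edgeR's quasi-likelihood test), and at 2.57 ± 0.949 and 16.0 ± 1.39 CPM in the refed groups. In the average over feeding states Sort1, a sorting receptor that binds apolipoprotein B, fell by 0.47 on the log2 scale.

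Of 15 further apolipoprotein genes 13 passed the filter. By edgeR 1, 0 and 2 of the 13 were called for diet in fasted, refed and averaged livers. Over all genes tested the shares were 0.771%, 0.174% and 1.51%. At an unadjusted p under 0.05 were 6, 4 and 6, against 10.8%, 9.76% and 14.3% of all genes. Their median log2 fold changes were -0.21, -0.15 and -0.23, against 0.01, -0.01 and -0.001 over all genes tested. Apol9a fell with diet in fasted livers, from 49.0 to 80.7 CPM over the 4 control livers to 18.2 to 32.6 over the 4 low isoleucine livers, a log2 fold change of -1.32 (SE 0.233, adjusted p = 0.0202 by edgeR's quasi-likelihood test). Its near-identical copy Apol9b was also called in the average over feeding states, and reads shared between the copies make both values uncertain. Apol7a and Apol9a rose on refeeding with the low isoleucine diet, by 1.28 and 1.03. On refeeding 0 of the 13 were called on the control and 2 on the low isoleucine diet, against 17.1% and 21.4% of all genes. At an unadjusted p under 0.05 by edgeR were 2 and 5, against 29.4% and 33.4% of all genes.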

How the data were processed

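RNA from mouse liver was sequenced as 16 stranded poly-A-enriched libraries, and lanes were merged per sample before expression was estimated, per the labels' protocols. Expected counts estimated per gene by RSEM are what the authors deposited, per the file headers, and 10.2% of the values are not whole. No source used here names the aligner, the RSEM settings or the genome build. Software listed in the submitters' processing notes is R 3.5.3, limma and edgeR. For each diet comparison the authors deposited p-values, an F score, log2 CPM and log2 fold changes, per the file headers.

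Expected counts were rounded, matched by identifier to symbols (51633 of 51912) and filtered with filterByExpr (minimum count 10, minimum total 15). They were scaled by TMM and fitted in R 4.3.3 with edgeR 4.0.16 (robust quasi-likelihood, 1 mean per group, all 16 libraries, no replicate block). P-values were adjusted over the 14920 genes tested, with a threshold of 0.05. SE was derived from F and the log2 fold change. Alternatives used DESeq2 1.42.0, limma 3.58.1, other scalings and filters, a replicate block, each library left out, and removal of length and GC trends. The steps were tested on simulated data. The members and lists were chosen with earlier results of these data known. All 10 members are reported. Of each other list the text names at most 4 called genes per comparison, taken by size of fold change, and for each member the 3 nearest genes. Some genes of the uptake list are not reported here. Totals of 24368656 to 34002955 counts per library leave counting error small beside the spread between libraries. The letter marks in the titles, which recur in each group, were not used to pair libraries in the reported fit.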

Additional observations from a re-analysis of the deposited data

Results flagged for a closer look

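Of 48 sets of 4 libraries checked for a library far from the other 3, 5 held one, and chance alone gives about 1 in 20. Apoa2 stood at 4494 CPM in low isoleucine fasted library 3, with the others at 5248 to 5337. Mttp stood at 277 CPM in low isoleucine refed library 4, with the others at 388 to 408; without that library the fall of Mttp on refeeding was still called. The 10 members together took 2.32% of counts in control fasted library 3 and 2.53% to 2.55% in the others. Mttp counts per 100 Apob counts were 7.33 in low isoleucine fasted library 1, against 9.88 to 10.3 in the others, and 6.44 in control refed library 4, against 8.40 to 8.78.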

How the results depend on the processing

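Among refits of single members under planned and added alternatives, 1657 kept their side of the threshold, 3 gained a call and 0 turned a call around; changes of sign were seen only among values that were not called. Counts of all genes called moved more. By DESeq2's Wald test 371 genes were called for diet in fasted, 179 in refed and 603 in averaged livers, and 35 for the difference, against 115, 26, 226 and 0 by edgeR. With the length and GC trend taken out they were 222, 73, 513 and 1, and 1 member (Apoa1) was called for refeeding on the control diet. Averaging refeeding over both diets gave 2 members. With only the compared groups in the fit, 193 and 3 genes were called in fasted and refed livers. Leaving out single libraries gave 6 to 222, 3 to 89, 115 to 473 and 0 to 1. Fasted counts were 52, 25, 40 and 6 without control fasted libraries 1 to 4, 203, 7, 14 and 24 without low isoleucine fasted libraries 1 to 4, 222 without control refed library 4 and 71 without low isoleucine refed library 1. Refed counts were 17 and 89 without control refed libraries 3 and 4, and 3, 6 and 9 without low isoleucine refed libraries 1, 2 and 4. Averaged counts were 140 without control fasted library 4, 410, 115, 150 and 129 without low isoleucine fasted libraries 1 to 4, 473 without control refed library 4, and 142, 144 and 150 without low isoleucine refed libraries 1, 2 and 4. The cause was not tested. Per kilobase of the longest coding transcript the levels were 3987 CPM for Apoc1, 828 for Apoc4, 4277 for Apoe and 108 for Mttp, as its construction sets.

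The letter marks in the titles recur in each group, and 7 of 16 pairs of same-marked libraries had deviations correlated above 0.1 (range -0.32 to 0.40). Pairs with different marks were not compared, so these values do not settle whether a mark links libraries. With the replicate block 2 members were called on refeeding with the low isoleucine diet, Apob at -0.54 and Mttp at -0.58. The block gave 77, 25, 186 and 0 genes for the diet comparisons above and 2301 and 2983 for refeeding on the control and low isoleucine diets. With 4 libraries a group, the interval of Apoa4 for diet in fasted livers, -0.65 to 1.25, spans changes larger than any measured here for another member.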
